A study of Mus musculus with 12 samples.

Results

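Transcript levels were compared between Stag2-KO and Stag2-WT mouse urothelium 1 month after mice began to eat a TMX diet, TMX being the inducing agent named by the labels. The comparison used all 6 libraries of that time, 3 KO and 3 WT, of the 12 in the series; the other 6 were taken at 1 week. The tissue was peeled urothelium, the epithelial lining separated from the wall beneath it, and mice of both genotypes ate the TMX diet for 1 week, so that exposure is shared by KO and WT. Replicates 1 and 2 of each genotype belonged to batch 2 of the labels and replicate 3 to batch 3. The promoter behind the recombinase, the exon removed, and the age and sex of the mice are not given in the sources used here. Every gene with enough counts was a member: 12139 of 23337 listed genes passed the filter on low counts, and 11198 did not.

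STAG2 is one of the alternative SA subunits of cohesin, which extrudes loops of chromatin and keeps sister chromatids joined until mitosis; Stag1 and Stag3 code for its paralogs, the latter used in meiosis. The urothelium is a slowly renewing epithelium with basal cells that carry Krt5, intermediate cells, and umbrella cells that carry Krt20 and cover their surface with plaques of uroplakins. The title of the series ties STAG2 to DREAM, which represses cell cycle genes in resting cells.

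Libraries held between 5580961 and 8308467 counts, and CPM are counts scaled to the library's total after TMM correction, listed in the order of replicates 1, 2 and 3. KO replicate 3 differed from the other 5 libraries in sex-linked transcripts: it had 1179 CPM of Xist, transcribed from the inactive X chromosome, against 0.319 to 3.44 CPM, and it had 0 counts of 4 Y-linked genes that summed to between 124 and 172 CPM elsewhere. KO replicate 3 was the only KO library of batch 3, so its Xist content and genotype cannot be told apart within that batch. That limit holds for every batch 3 difference below. The title of WT replicate 3 and its library name carry different animal numbers, and its column was matched through the library name. On the first principal component, with 62% of the variance, WT replicates 1 and 2 scored 73.7 and 50.3, KO replicates 1 and 2 scored -2.8 and -13.6, and the batch 3 libraries scored -45.6 in WT and -62 in KO. Replicates differed well beyond counting noise, with a chi-square per degree of freedom of 24.5 or more in every pair. The labels give each library a batch number without saying what the batch was, and batch was a term in the fit. The animals carry different numbers, so replicates were taken as separate mice. Urothelial identity was clear in every library, with Upk1a between 3075 and 12890 CPM.

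Stag2 itself (chrX:42149297-42277186, in RefSeq GRCm38.p6, the assembly also called mm10) had 59.1, 61.8 and 46.2 CPM in the WT libraries and 37.9, 36.3 and 19.3 CPM in the KO libraries. Every KO library lay below every WT library, and the transcript remained detectable in each KO library with between 127 and 308 counts. The change was -0.88 on the log2 scale (SE 0.22), and its edgeR adjusted p of 0.0507 missed the threshold of 0.05. Within batch 2 the log2 difference KO minus WT was -0.70, and within batch 3 it was -1.25. The libraries read transcript 3′ ends, so a transcript that lacks an internal exon would still be counted, and the level of Stag2 checks the labels only in part. Stag1 had 20.2, 22.6 and 35.2 CPM in WT and 24.1, 29.96 and 22.2 CPM in KO (log2 fold change -0.00, SE 0.27, edgeR adjusted p 0.995). Stag3 stayed between 1.52 and 3.57 CPM in all 6 libraries (edgeR adjusted p 0.937).

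Among the 12139 genes 269 (2.22%) passed in edgeR at an adjusted p of 0.05: 121 were higher in KO (0.997%) and 148 were lower (1.22%). Unadjusted, 2608 genes had a p under 0.05. Higher genes had a median log2 fold change of 1.32 and a range of 0.85 to 3.89, and 13 of them reached 2. Lower genes had a median of -1.44 and a range of -6.16 to -0.92, and 32 of them reached -2. The 121 and 148 genes covered similar levels, with median mean CPM of 30.1 and 28.6 against 22 over all genes tested. With library size alone as the scaling, which shifted the median of all genes by 0.221 on the log2 scale, 556 genes passed and 81.1% of them were higher, where TMM gave 45% higher. Directions below are relative to TMM scaling.

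**Figure D1:**
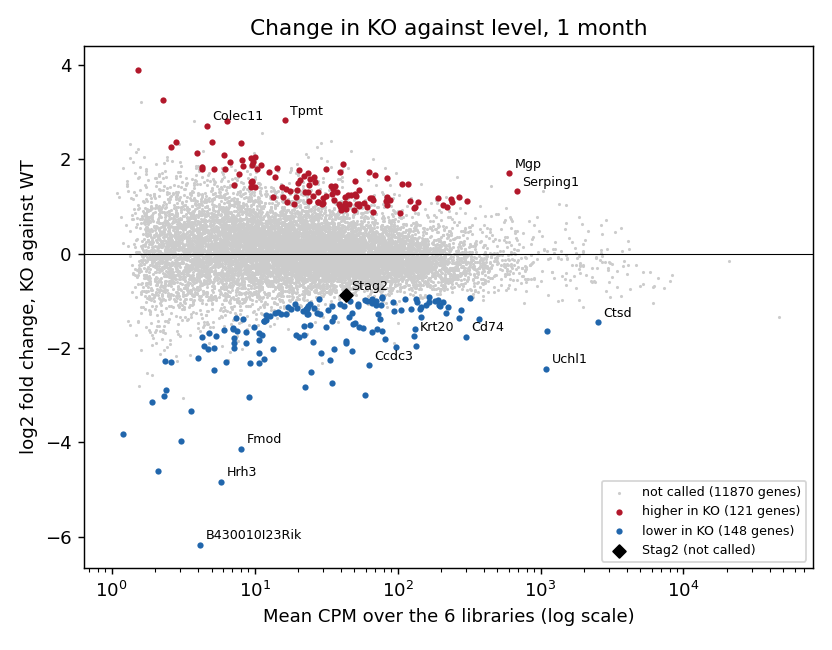
Each point is a gene tested at 1 month, with its mean CPM over the 6 libraries on a log axis and its log2 fold change in KO against WT. Red points are the 121 genes called higher, blue points the 148 called lower, and the black diamond is Stag2 at -0.88, which was not called.

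The batches shaped which genes passed. Without batch in the model 0 genes passed in edgeR, with 919 at an unadjusted p under 0.05. Across all genes, the differences KO minus WT in batch 2 and in batch 3 had a Pearson r of 0.26 and a Spearman coefficient of 0.25, and 58.5% had the same sign in both; these are correlations over genes of the same libraries, which are not independent replicates. For 1614 genes (13.3%) all CPM of one genotype lay above those of the other, of which 694 were higher in KO (5.72%) and 920 lower (7.58%). Of the 148 lower genes 136 did not overlap, but of the 121 higher genes 57 did not. In 104 of the 121 higher genes the WT library of batch 3 was above both WT libraries of batch 2, as it was in 41.1% of all genes, and in 39 it was above both KO libraries of batch 2. In 102 of the 148 lower genes it was below both WT libraries of batch 2 (68.9%, against 43.9% of all genes). In 3 lower genes it was below both KO libraries of batch 2. All 121 higher genes had KO above WT in both batches, as 27.6% of all genes had, and all 148 lower genes had KO below WT in both, as 30.9% had, which the fit itself favours. Within the batches the higher genes had median log2 differences of 1.47 in batch 2 and 0.86 in batch 3, where 1 library stood against 1, and the lower genes had medians of -1.45 and -1.28.

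**Figure D2:**
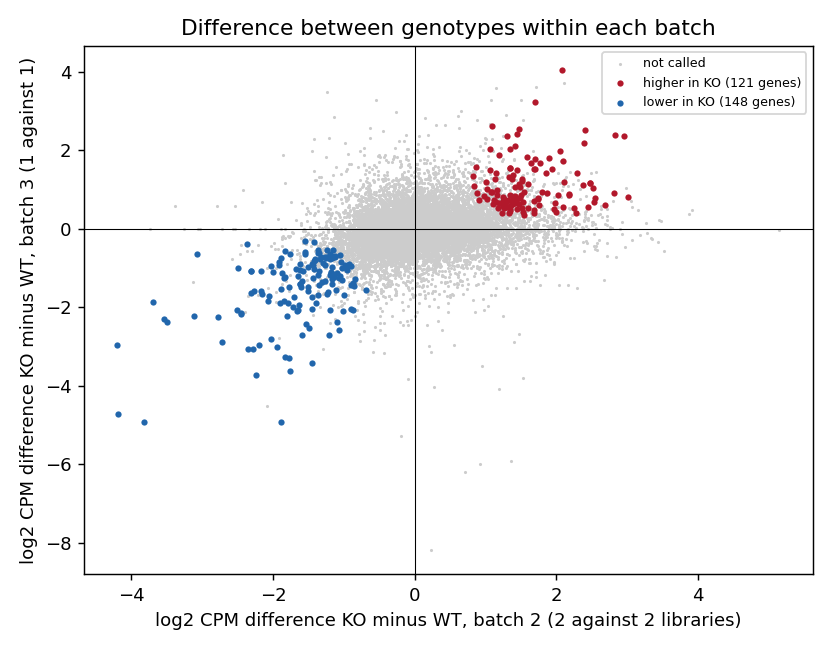
Each point is a gene, with its log2 CPM difference KO minus WT in batch 2 (2 against 2 libraries) on the horizontal axis and in batch 3 (1 against 1) on the vertical axis. Called genes, in red and blue, have the same sign in both batches, while the grey cloud of all genes has the same sign for 58.5%.

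Leaving out 1 library decided the count. Without WT replicate 1, WT replicate 2, KO replicate 1 or KO replicate 2, all of batch 2, 83, 45, 63 and 84 genes passed, of which 69, 44, 54 and 65 were among the 269. Without either library of batch 3 the genotype effect came from batch 2 alone, and 1522 or 1513 genes passed, 260 of the 269 among them in each case. The fit without KO replicate 3, the library with Xist, was one of these. A core of 27 genes passed in the full fit and in all 6 of these, 6 higher and 21 lower in KO, and every other called gene missed the threshold, or was not tested, in at least 1 of the 6. Another 168 passed in 2 of the 6 fits. For all but Ccdc21, Ly6k, Rab6b and Sult5a1 these were the 2 fits without a library of batch 3, which both rest on batch 2. A further 6 passed in none of the 6 fits: Duox1, Kif1a, Ltbp4, Syt1, Tspan18 and Ube2e1. The 6 higher genes of the core were Tpmt, 1110018G07Rik (Arel1 in RefSeq), Trnp1, Colec11, Lrrc32 and Mdk. The 21 lower ones were Ccdc3, Cntnap2, B430010I23Rik, Fmod, Lyz1, Anxa8, Mfsd4, Padi1, Hrh3, Kcnk3, Slc6a8, Defb1, Cd74, Rhov, Usp27x, Krt20, Nrn1, Tmem229a, Gp1bb, Cap1 and Ttr.

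Tpmt (chr13:47021987-47043338), the enzyme that methylates thiopurines, had 2.35, 4.85 and 4.88 CPM in WT and 38.7, 20.7 and 26.4 CPM in KO (log2 fold change 2.82, SE 0.35, edgeR adjusted p 0.00222). Every KO library was above every WT library. Colec11, a secreted lectin that starts complement activation, had 1.18, 1.26 and 1.22 CPM in WT and 7.5, 8.13 and 8.5 CPM in KO, with libraries of each genotype close together (log2 fold change 2.70, SE 0.41, edgeR adjusted p 0.0098). Trnp1 (chr4:133491097-133499645), a nuclear protein studied in neural progenitors, had 9.81, 9.16 and 8.7 CPM in WT and 36.4, 29.96 and 28.7 CPM in KO (log2 fold change 1.78, SE 0.24, edgeR adjusted p 0.00393). Both batches gave nearly the same difference for Trnp1, 1.77 and 1.69. Lrrc32, the surface protein that holds latent TGF-beta, had 8.83, 9.7 and 17.2 CPM in WT and 21.1, 27.4 and 71.2 CPM in KO (log2 fold change 1.62, SE 0.26, edgeR adjusted p 0.00991). Mdk, the heparin-binding growth factor midkine, had 6.67, 9.88 and 16.2 CPM in WT and 31.2, 23.1 and 46.6 CPM in KO (log2 fold change 1.65, SE 0.26, edgeR adjusted p 0.00991). For both, the batch 3 library was the highest of its genotype, and the genotypes did not overlap. 1110018G07Rik, a ubiquitin ligase gene, had 9.42, 13.7 and 19.99 CPM in WT and 42.5, 46.4 and 57.7 CPM in KO (log2 fold change 1.80, SE 0.24, edgeR adjusted p 0.00352).

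The lower genes of the core included secreted, surface and channel proteins. Ccdc3 (chr2:5137311-5235967), which codes for a secreted protein, had 130.1, 128 and 58.5 CPM in WT and 20.8, 26.5 and 13.1 CPM in KO (log2 fold change -2.36, SE 0.22, edgeR adjusted p 0.000647), the smallest adjusted p of all genes. Cntnap2 (chr6:45060061-47301393), a neurexin-family adhesion protein, had 48.3, 33.9 and 35.7 CPM in WT and 7.26, 4.78 and 4.55 CPM in KO (log2 fold change -2.82, SE 0.28, edgeR adjusted p 0.000824). Fmod, a small leucine-rich proteoglycan that binds collagen fibrils, had 14.3, 18.9 and 12.7 CPM in WT and 0.738, 0.478 and 1.37 CPM in KO (log2 fold change -4.13, SE 0.44, edgeR adjusted p 0.000968). Hrh3, a histamine receptor, had 12.8, 7.36 and 13.9 CPM in WT and 0.738, 0.159 and 0.152 CPM in KO (log2 fold change -4.83, SE 0.57, edgeR adjusted p 0.00155). All 4 genes had separate ranges in the 2 genotypes, and the KO libraries of Fmod and Hrh3 held 1 to 9 counts each. B430010I23Rik, a transcript with no known product, had 147 counts over the WT libraries and 2 over the KO libraries, 89.6-fold lower in KO. Its 95% exact counting interval of 24.4 to 747 pools the libraries of a genotype and leaves out variation between mice. Kcnk3, a background potassium channel, had 68.9, 45.1 and 68.5 CPM in WT and 12.5, 10.7 and 4.86 CPM in KO (log2 fold change -2.75, SE 0.33, edgeR adjusted p 0.00162). Slc6a8, the creatine transporter on chromosome X, had 37.3, 46.5 and 55.5 CPM in WT and 6.76, 9.88 and 17.6 CPM in KO (log2 fold change -2.10, SE 0.26, edgeR adjusted p 0.00222). The batch 3 library was the highest of each genotype, and the genotypes did not overlap.

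By position, 102 of the 267 called genes placed on RefSeq GRCm38.p6 had another called gene within 1 Mb (38.2%), as had 3779 of all 12056 tested genes with a position (31.3%), and 12 pairs were neighbours among tested genes, 8 of them with the same direction. The imprinted transcripts Rian and Mirg and their neighbour Dio3os were the 3 tested genes at chr12:109603945-110278068, and all 3 were lower. On the same chromosome lay 3 higher genes, Klc1, Zfyve21 and Akt1, at chr12:111758435-112674884, a span with 11 tested genes. Each span was drawn from the first to the last called gene, so the share called within it is partly set by that choice. Most runs of 3 or more called genes, each starting within 1 Mb of the next, held both directions. An example is chr2:119269201-120353142, with 3 higher and 2 lower among 20 tested genes. Chromosome X held 9 lower genes and 1 higher among 390 tested (2.56% called, against 2.22% of all genes). All 6 tested genes of the list that escapes X inactivation missed the threshold in edgeR, DESeq2 and limma-voom. Of these, 0 had an unadjusted p under 0.05. The 4 Y-linked genes missed it too, with 0 at an unadjusted p under 0.05, although their batch 3 median was -6.06. KO replicate 3 alone carried Xist, so a test of KO against WT cannot decide what sets that library apart. Other neighbours that fell together were Padi1 with Padi2 and Ccl9 with Ccl6.

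Windows of these 2 pairs and of Cdc25b from RefSeq's promoter table are shown because the pairs moved together and Cdc25b was the one called gene of the G2/M list. Each is the GRCm38.p6 sequence from 250 bases before to 50 after a transcript start in that table, on the gene's strand. The Cdc25b gene begins at 131186436, so its window lies within the gene, after the first start, and Padi2 begins at 140906336, inside its own window. Capitals mark matches, on either strand, to TTTGAA and TTCGAA, both forms of the CHR element to which DREAM binds, to the E2F forms TTTCGCGC and TTTGGCGC, to TATAAA, and to the interferon response core GAAANNGAA.
Cdc25b, chr2:131186698-131186997, plus strand: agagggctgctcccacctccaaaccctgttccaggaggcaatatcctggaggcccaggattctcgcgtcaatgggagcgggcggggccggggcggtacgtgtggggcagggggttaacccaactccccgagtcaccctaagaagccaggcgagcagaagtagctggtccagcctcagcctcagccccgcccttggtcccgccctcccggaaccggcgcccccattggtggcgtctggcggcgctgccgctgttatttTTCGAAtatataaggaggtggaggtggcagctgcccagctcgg
Padi1, chr4:140845729-140846028, minus strand: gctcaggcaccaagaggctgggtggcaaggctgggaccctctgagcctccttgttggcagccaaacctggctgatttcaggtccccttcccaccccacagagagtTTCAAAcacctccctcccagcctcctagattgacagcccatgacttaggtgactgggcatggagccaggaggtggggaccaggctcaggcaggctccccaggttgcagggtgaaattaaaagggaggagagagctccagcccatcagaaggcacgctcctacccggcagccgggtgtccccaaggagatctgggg
Padi2, chr4:140906110-140906409, plus strand: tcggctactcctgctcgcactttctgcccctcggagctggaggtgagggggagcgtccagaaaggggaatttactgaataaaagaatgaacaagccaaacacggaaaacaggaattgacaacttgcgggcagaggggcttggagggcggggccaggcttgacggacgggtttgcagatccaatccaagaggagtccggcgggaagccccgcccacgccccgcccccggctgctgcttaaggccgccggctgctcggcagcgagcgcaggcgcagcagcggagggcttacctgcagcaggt
Ccl9, chr11:83578587-83578886, minus strand: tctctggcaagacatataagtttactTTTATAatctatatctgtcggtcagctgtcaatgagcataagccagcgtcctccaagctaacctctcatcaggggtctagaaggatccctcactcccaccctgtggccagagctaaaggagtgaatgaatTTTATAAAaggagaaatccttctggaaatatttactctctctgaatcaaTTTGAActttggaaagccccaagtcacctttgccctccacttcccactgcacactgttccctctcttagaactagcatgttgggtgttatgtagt
Ccl6, chr11:83593038-83593337, minus strand: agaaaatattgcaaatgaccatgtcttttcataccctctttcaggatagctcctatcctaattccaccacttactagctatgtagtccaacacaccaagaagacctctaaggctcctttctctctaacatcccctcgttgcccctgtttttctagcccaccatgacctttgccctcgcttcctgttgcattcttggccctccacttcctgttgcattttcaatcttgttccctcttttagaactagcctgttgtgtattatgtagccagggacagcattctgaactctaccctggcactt
The Cdc25b window held TTCGAA, which 1.57% of all 27025 promoters in the table hold. Padi1 and Ccl9 held TTTGAA, found in 18.1% of promoters, and Ccl9 also held TATAAA, found in 14.2%. These letters are not in the windows of Padi2 and Ccl6. A match describes the sequence and shows no binding. A comparison of motif shares between called and other genes is void, since 72.7% of the higher genes had a promoter in the table and 80% were required.

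To describe the functional make-up, 227 of the 269 called genes were given 1 of 18 roles by hand and 42 got none. The roles were given after the calls were seen, so their counts describe the called genes and carry no test. The gene lists below were chosen with earlier results of these data known. Their shares of called genes, set beside the share of all genes, are therefore descriptive too. Among immune and defence genes 14 were lower and 5 higher. All 14 lower ones had no overlap between genotypes, as had 91.9% of all lower genes. Among epithelial keratin, junction, envelope and barrier genes 10 were lower and 4 higher, among genes of the cytoskeleton, motors and small GTPase regulation 17 and 7, and among genes of cell cycle and DNA repair 6 and 2. Matrix genes counted 9 higher and 4 lower. Of the 9, 3 did not overlap, where 47.1% of all higher genes did not. Enzymes of xenobiotic, sugar, amino acid and 1-carbon metabolism split 10 to 7. Cytokines, growth factors, hormones and their receptors split evenly, 12 and 12. The 3 transcripts of the non-coding role, the neighbours Rian, Mirg and Dio3os, were all lower. By RefSeq biotype 6 of 301 tested long non-coding RNAs were called, all of them lower (1.99%, against 2.22% of all genes).

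**Figure D3:**
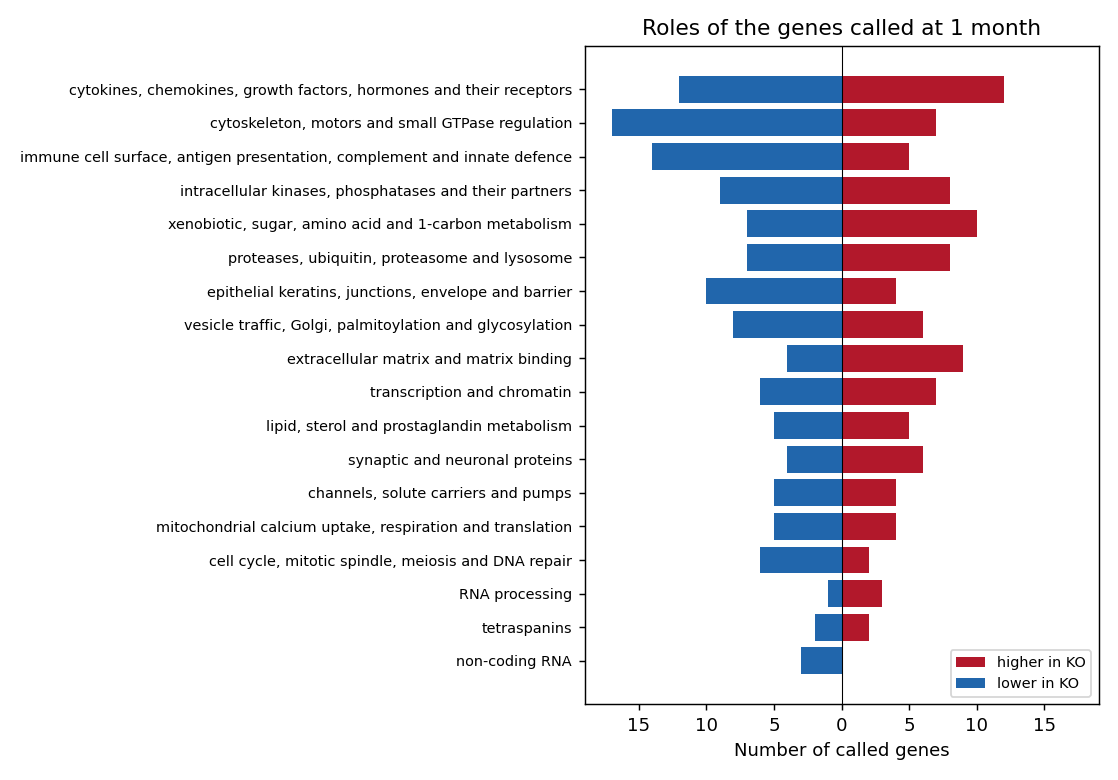
Bars count the called genes of each of 18 hand-given roles, lower in KO to the left in blue and higher in KO to the right in red. The longest bar to the left is the cytoskeleton and GTPase role with 17 genes, and the longest to the right is the cytokine and growth factor role with 12.

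Among immune and defence genes, the lower members were largely genes of myeloid cells and antigen presentation. Cd74, the invariant chain that escorts MHC class II proteins, had 501, 612 and 293 CPM in WT and 121, 184 and 101 CPM in KO (log2 fold change -1.76, SE 0.23, edgeR adjusted p 0.00344). H2-Ab1, a class II chain, had 218, 308 and 260.2 CPM in WT and 84.8, 118 and 178 CPM in KO (log2 fold change -1.10, SE 0.25, edgeR adjusted p 0.042). The genotypes were apart for both, and Cd74 was in the core. Of the 11 tested genes of the MHC class II list, 2 were lower and 1 was higher (27.3% called, against 2.22% of all genes), and 9 had a log2 fold change below 0, with a median of -0.75. The higher member was Ifi30, a lysosomal thiol reductase used in antigen processing, with 6.08, 12.2 and 34 CPM in WT and 23.4, 34.6 and 55.7 CPM in KO (log2 fold change 1.31, SE 0.31, edgeR adjusted p 0.0476). Its WT library of batch 3 lay above the lowest KO library, so the genotypes overlapped. Of 17 tested genes of MHC class I and peptide loading 0 passed in edgeR, with 2 at an unadjusted p under 0.05, 1 in DESeq2 and 0 in limma-voom, and their median was 0.25.

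Complement showed 2 lower and 1 higher of 17 tested genes (17.6% called, against 2.22% of all genes). C1qa, a chain of the C1q recognition protein made by macrophages, had 361, 199.5 and 97.4 CPM in WT and 48.1, 60.2 and 46.3 CPM in KO (log2 fold change -1.95, SE 0.31, edgeR adjusted p 0.0121). C1qb had 148, 110.2 and 70.5 CPM in WT and 29, 48.1 and 44.8 CPM in KO (log2 fold change -1.39, SE 0.28, edgeR adjusted p 0.0302). Serping1, the inhibitor of C1 proteases, had 152, 279 and 817 CPM in WT and 479, 697 and 1693 CPM in KO (log2 fold change 1.31, SE 0.28, edgeR adjusted p 0.0315), and its WT library of batch 3 was above both KO libraries of batch 2. The third C1q chain, C1qc, had 13.3, 12.8 and 25 CPM in WT and 6.27, 11 and 23.7 CPM in KO and did not pass (edgeR adjusted p 0.422).

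Csf1r, the receptor on which macrophages depend for survival, had 358, 387 and 196 CPM in WT and 138, 118 and 159 CPM in KO (log2 fold change -1.13, SE 0.26, edgeR adjusted p 0.0429). Its difference was -1.54 in batch 2 and -0.30 in batch 3. C1qa and C1qb also differed less in batch 3, by -1.07 and -0.65 against -2.31 and -1.76 in batch 2. Another 6 called genes of myeloid cells, picked after their values were seen, were lower: Cybb, a subunit of the phagocyte oxidase, the Fc receptor gene Fcgr4, Fcrls, the scavenger receptor gene Stab1, the lectin gene Clec4a1, and Slamf7. Their log2 fold changes were -1.26, -3.96, -1.86, -1.08, -1.28 and -1.96. Csf2ra, a subunit of the GM-CSF receptor, went the other way, with 5.3, 6.1 and 23.8 CPM in WT and 16.9, 27.4 and 45.4 CPM in KO (log2 fold change 1.56, SE 0.30, edgeR adjusted p 0.0249).

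The whole macrophage and dendritic cell list had 26 genes, of which 19 were tested, 3 were lower and 0 higher (15.8%, beside 2.22% of all genes). Below 0 were 17 of the 19, and 9 lay below WT without overlap of CPM, as 7.58% of all genes did. The median was -0.90, with -1.25 in batch 2 and -0.51 in batch 3. The genes above 0 were Cd14 and Epcam, an adhesion gene of epithelia that Langerhans cells share. None of the 26 genes was at 0 in all libraries. The summed level of the list ran from 742 to 1214 CPM in WT and from 428 to 549 CPM in KO. This is a difference without overlap, for which a two-sided exact permutation test gives 0.1, the smallest p that 3 against 3 allows. In bulk tissue, fewer cells of a type and less RNA of those genes per cell cannot be told apart. The KO to WT ratio of the sum was 0.48, with 0.394 in batch 2 and 0.739 in batch 3. The 3 called genes, C1qa, C1qb and Csf1r, gave much of the sum in WT, so it is not separate from their calls. C1qa alone gave 97.4 to 361 CPM in WT and 46.3 to 60.2 CPM in KO. The T and NK lymphocyte list overlapped between genotypes, at 72.3 to 109.9 CPM in WT and 84.5 to 128 CPM in KO, and the B and plasma cell list did too, at 256 to 356 CPM and 301 to 356 CPM. The part of macrophage number in the lower immune genes was not tested.

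Of 14 tested genes of innate defence and secreted barrier proteins 3 fell and 1 rose (28.6% called, against 2.22% of all genes). Lyz1, a lysozyme, had 75.2, 70.2 and 29.8 CPM in WT and 18.3, 15.9 and 8.04 CPM in KO (log2 fold change -2.02, SE 0.22, edgeR adjusted p 0.00113). Defb1, a beta-defensin, had 73.6, 31.2 and 21.8 CPM in WT and 8.61, 7.81 and 5.01 CPM in KO (log2 fold change -2.50, SE 0.33, edgeR adjusted p 0.00344). Clu, the chaperone clusterin, had 349, 318 and 506 CPM in WT and 126, 159.7 and 164 CPM in KO (log2 fold change -1.36, SE 0.21, edgeR adjusted p 0.00991). In each of the 3, all KO libraries were below all WT libraries. Pigr, the receptor that carries IgA across epithelia, had 8.44, 5.75 and 13.7 CPM in WT and 15.7, 21.8 and 33.7 CPM in KO (log2 fold change 1.36, SE 0.27, edgeR adjusted p 0.0278). Lyz1 and its neighbour Lyz2 are near-identical copies whose reads counting could split, and Lyz2 had 0.785 to 19.4 CPM in WT. Lyz2 is also on the macrophage list, and which cells gave the reads of these defence genes was not tested.

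Of 34 tested genes of chemokines, cytokines and their receptors 4 fell and 1 rose (14.7% called, against 2.22% of all genes). Ccl9, a CC chemokine, had 12.6, 15.4 and 12.7 CPM in WT and 4.43, 4.78 and 2.12 CPM in KO (log2 fold change -1.89, SE 0.34, edgeR adjusted p 0.0196). Ccl6, its neighbour on chromosome 11, had 32.4, 33.8 and 41.2 CPM in WT and 11.9, 19.4 and 7.74 CPM in KO (log2 fold change -1.50, SE 0.31, edgeR adjusted p 0.0302). Il33, an alarmin kept in the nuclei of barrier cells, had 18.1, 23 and 14.2 CPM in WT and 7.75, 8.93 and 5.46 CPM in KO (log2 fold change -1.32, SE 0.27, edgeR adjusted p 0.0302). The fourth was Csf1r. Cxcl14, a chemokine of epithelia and stroma, was the one that rose, from 135, 175 and 142 CPM to 282, 282 and 422 CPM (log2 fold change 1.10, SE 0.23, edgeR adjusted p 0.0302). The list's median was -0.17, against -0.01 for all genes, and 0.04 with library size alone. Of the interferon-stimulated genes 1 of 46 passed (2.17%, against 2.22% of all genes). It was Ifi27l2a, with 166, 112 and 80.1 CPM in WT and 29.3, 49.1 and 34.1 CPM in KO (log2 fold change -1.63, SE 0.26, edgeR adjusted p 0.0102).

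Genes of the luminal layers were called lower for 3 of 39 tested and higher for 1 (10.3% called, against 2.22% of all genes). Krt20, the keratin of umbrella cells (chr11:99428385-99438153), had 291, 158 and 159.9 CPM in WT and 76.6, 55.6 and 47.7 CPM in KO (log2 fold change -1.75, SE 0.25, edgeR adjusted p 0.00601). Hpgd, which degrades prostaglandins, had 92.2, 86.9 and 41 CPM in WT and 28.3, 41.9 and 12.4 CPM in KO (log2 fold change -1.47, SE 0.23, edgeR adjusted p 0.00983). Tjp1, the tight junction scaffold ZO-1, had 49.5, 58 and 36.2 CPM in WT and 21.3, 28.9 and 16.4 CPM in KO (log2 fold change -1.11, SE 0.23, edgeR adjusted p 0.0284). For Krt20 and Tjp1 the genotypes did not overlap, and for Hpgd the lowest WT library, of batch 3, was just below KO replicate 2. Below 0 were 27 of the 39, with a median of -0.35. The list summed to between 26620 and 41100 CPM in WT and between 19670 and 25980 CPM in KO, without overlap (exact permutation p = 0.1, the smallest possible). Uroplakin genes alone gave 10350 to 22600 CPM of that sum in WT and 7214 to 10650 CPM in KO, and their own sum overlapped between genotypes.

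Of the 5 uroplakin genes 0 passed in edgeR or limma-voom and 1 in DESeq2, 3 had an unadjusted p under 0.05, and all 5 had a log2 fold change below 0. Upk1a had 12890, 7429 and 4864 CPM in WT and 5074, 3452 and 3075 CPM in KO (log2 fold change -1.06, SE 0.32, edgeR adjusted p 0.0902). Upk3a had 4344, 3531 and 3064 CPM in WT and 2298, 2451 and 2429 CPM in KO (log2 fold change -0.60, SE 0.26, edgeR adjusted p 0.2). Upk2 had 4828, 2114 and 1243 CPM in WT and 2757, 1833 and 831 CPM in KO (log2 fold change -0.59, SE 0.32, edgeR adjusted p 0.3). Of the 5, Upk3a alone had no overlap between the genotypes, and Upk1b was close to 0 at -0.02. Gsdmc2, a gasdermin and a gene of the luminal list, was the one that rose, with 41.2, 39.7 and 346 CPM in WT and 123, 109 and 497 CPM in KO (log2 fold change 1.18, SE 0.24, edgeR adjusted p 0.0292). Its batch 3 libraries were the highest of both genotypes, and WT of batch 3 was above KO of batch 2. Gsdmc2 shares sequence with other Gsdmc copies, of which Gsdmc3 had 2.16, 7.36 and 122 CPM in WT and 34.4, 37.5 and 198 CPM in KO and did not pass (edgeR adjusted p 0.0942).

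Of 26 tested basal genes 0 passed in edgeR, with 8 at an unadjusted p under 0.05 and 1 called in DESeq2 and in limma-voom each. Krt5, the basal keratin, had 111, 206 and 504 CPM in WT and 603, 615 and 672 CPM in KO. Its KO libraries were all above the WT libraries, and its edgeR adjusted p of 0.0505 just missed the threshold at a log2 fold change of 1.44 (SE 0.34). Krt15 had 2294, 3094 and 3459 CPM in WT and 3213, 4213 and 5659 CPM in KO (log2 fold change 0.55, SE 0.27, edgeR adjusted p 0.26). Trp63, the basal transcription factor, had 14.7, 21.6 and 34.5 CPM in WT and 35.7, 45 and 31 CPM in KO (log2 fold change 0.71, SE 0.30, edgeR adjusted p 0.194). The list summed to 4553 to 6345 CPM in WT and 6555 to 8298 CPM in KO, again without overlap (exact permutation p = 0.1). Krt15 alone gave 2294 to 3459 CPM of that sum in WT and 3213 to 5659 CPM in KO. Above 0 were 14 of the 26 genes and below 0 were 12. The median over its genes was 0.21, with 0.50 in batch 2 and -0.27 in batch 3.

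**Figure D4:**
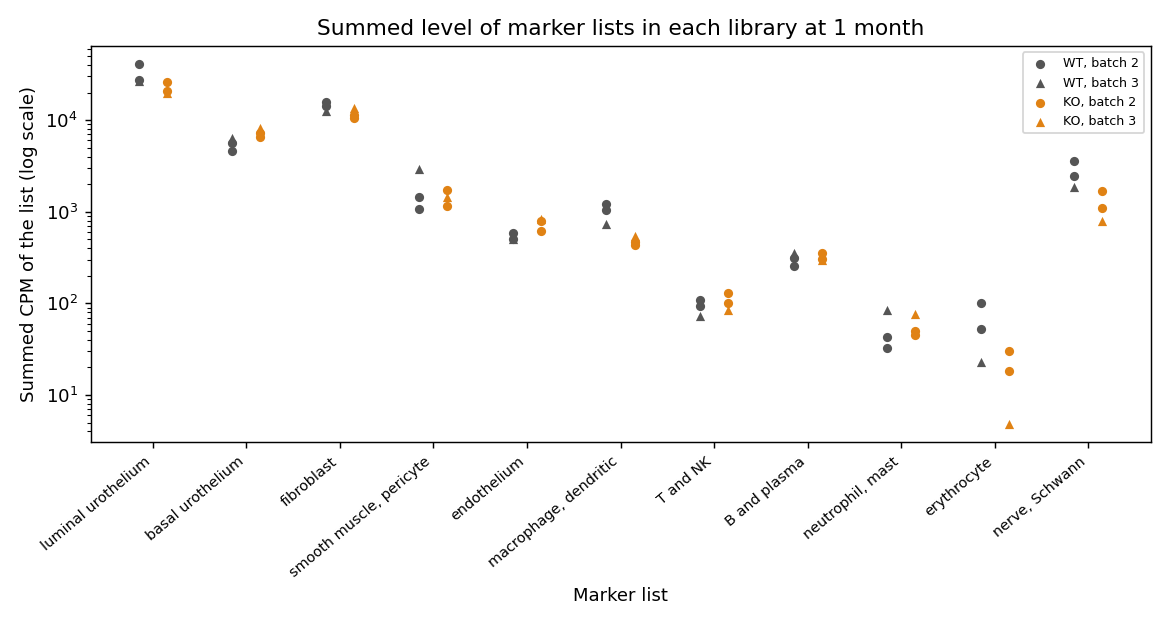
Points are the summed CPM of marker lists in each library, on a log axis, with WT in grey, KO in orange, circles for batch 2 and triangles for batch 3. The luminal and the macrophage list are lower and the basal and endothelial list higher in every KO library than in every WT library, and the fibroblast, smooth muscle and lymphocyte lists overlap.

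Junction and envelope genes added further lower members. Dsp, the plakin that ties keratins to desmosomes, had 353, 314 and 263 CPM in WT and 112, 136 and 139 CPM in KO (log2 fold change -1.26, SE 0.21, edgeR adjusted p 0.0132). Padi1 (chr4:140812981-140845778), which turns arginine of keratins and filaggrin into citrulline, had 87.1, 65.9 and 50.4 CPM in WT and 22.3, 21 and 13.4 CPM in KO (log2 fold change -1.85, SE 0.22, edgeR adjusted p 0.00155). Padi2, next to it on chromosome 4, had 26.9, 37.7 and 35.6 CPM in WT and 13.3, 13.9 and 5.16 CPM in KO (log2 fold change -1.72, SE 0.32, edgeR adjusted p 0.0218). All of these ranges were apart. Anxa8, an annexin of epithelia, had 77.7, 85.8 and 69.7 CPM in WT and 15.2, 18.2 and 22.9 CPM in KO (log2 fold change -2.06, SE 0.23, edgeR adjusted p 0.00122). Gjb6, the gap junction gene for connexin 30, had 532, 352 and 270 CPM in WT and 221, 169 and 116 CPM in KO (log2 fold change -1.19, SE 0.23, edgeR adjusted p 0.0245). Of the 41 tested genes of tight, adherens and desmosomal junctions only Dsp and Tjp1 passed (4.88% called, against 2.22% of all genes). The median was -0.14, or 0.08 with library size alone.

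Genes of the cytoskeleton, of motors and of small GTPase regulation had 17 lower members, 16 of them without overlap, as 91.9% of all lower genes were. Rhov, a small GTPase, had 128, 96.6 and 78 CPM in WT and 30.7, 30.8 and 32.3 CPM in KO (log2 fold change -1.67, SE 0.22, edgeR adjusted p 0.00344), with the 3 KO libraries close together. Cap1, a regulator of actin turnover, had 12.6, 13.1 and 20.9 CPM in WT and 4.3, 1.91 and 2.73 CPM in KO (log2 fold change -2.32, SE 0.38, edgeR adjusted p 0.0113). Kif3a, a kinesin-II motor needed for cilia, had 409, 309.9 and 948 CPM in WT and 196, 158 and 222 CPM in KO (log2 fold change -1.38, SE 0.26, edgeR adjusted p 0.0245). The WT library of batch 3 was the highest for Kif3a, yet the genotypes did not overlap. Tubb2b, a beta-tubulin of neurons, had 6.87, 10.8 and 32 CPM in WT and 1.84, 2.39 and 0.759 CPM in KO (log2 fold change -3.03, SE 0.57, edgeR adjusted p 0.0272). Smtn, the smooth muscle protein smoothelin, had 92.8, 85.6 and 57.1 CPM in WT and 42.9, 46.5 and 29.1 CPM in KO (log2 fold change -0.99, SE 0.20, edgeR adjusted p 0.0272). The actin regulators Enah and Csrp1 fell by 0.95 and 1.09 on the log2 scale, Enah with overlap. Klc1, a kinesin light chain, was higher, with 15.1, 24.4 and 109.7 CPM in WT and 76.1, 81.3 and 199 CPM in KO (log2 fold change 1.59, SE 0.27, edgeR adjusted p 0.0141), where the WT library of batch 3 exceeded both KO libraries of batch 2.

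Genes best known from neurons moved in both directions. Uchl1, an abundant ubiquitin hydrolase of neurons, had 2714, 1631 and 1117 CPM in WT and 738, 251 and 134 CPM in KO (log2 fold change -2.44, SE 0.41, edgeR adjusted p 0.0196). Its KO values were spread widely, from 134 to 738 CPM, and all lay below the WT values. Syt1, the calcium sensor of synaptic vesicles, had 4.12, 3.05 and 4.73 CPM in WT and 0.984, 0.956 and 0.455 CPM in KO (log2 fold change -2.28, SE 0.53, edgeR adjusted p 0.0443), and passed in none of the 6 fits that left out 1 library, or in limma-voom. Nrn1, a neurite growth protein, fell by 1.56 on the log2 scale. The related Syt13 and Syt8 rose, with log2 fold changes of 2.36 and 0.96, as did the clustered protocadherins Pcdhb7 (log2 fold change 2.12, SE 0.46, edgeR adjusted p 0.0351) and Pcdhb9 (log2 fold change 1.45, SE 0.34, edgeR adjusted p 0.0437). The nerve and Schwann cell list summed to between 1856 and 3566 CPM in WT and between 791 and 1695 CPM in KO, a sum that Uchl1 dominates. Of its 10 tested genes Uchl1 alone passed (10%, against 2.22% of all genes). Of the 10, 5 were above and 5 below 0, and their median was -0.06, or 0.15 with library size alone. Pcdhb genes are near-identical copies in 1 cluster, so reads may be split among them.

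Matrix genes counted 9 higher members, 6 of which overlapped between genotypes. Mgp, the inhibitor of calcification, had 121, 230.2 and 612 CPM in WT and 743, 774 and 1138 CPM in KO (log2 fold change 1.71, SE 0.31, edgeR adjusted p 0.0218), and its KO libraries were all above the WT libraries. Igfbp7, a secreted protein of vessels and stroma, had 56.1, 93.7 and 329 CPM in WT and 181, 201 and 555 CPM in KO (log2 fold change 1.15, SE 0.24, edgeR adjusted p 0.0319). Ltbp4, which anchors latent TGF-beta to elastic fibres, had 116, 170.2 and 154 CPM in WT and 213, 291 and 389 CPM in KO (log2 fold change 0.99, SE 0.24, edgeR adjusted p 0.0476), and passed in none of the 6 fits that left out 1 library. Col6a3, a chain of collagen VI, had 38.3, 68 and 176 CPM in WT and 121, 135 and 295 CPM in KO (log2 fold change 1.09, SE 0.24, edgeR adjusted p 0.0379). For Igfbp7 and Col6a3 the WT library of batch 3 exceeded both KO libraries of batch 2. Against these, Fmod, Fbln2, a basement membrane protein, and Gpc3, a glypican, were lower. Fbln2 had 71, 80.6 and 45.9 CPM in WT and 39.97, 21.8 and 16.7 CPM in KO (log2 fold change -1.34, SE 0.25, edgeR adjusted p 0.0212). Of 61 tested matrix glycoproteins and proteoglycans 3 rose and 3 fell (9.84% called, against 2.22% of all genes), and their median was 0.23. Of 27 collagens 1 rose (3.7% called), and the median was -0.09.

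Pdgfrb, Kcnj8, Plvap and Calcrl, genes of pericytes and vessels, were higher. Pdgfrb, the PDGF receptor of pericytes and fibroblasts, had 7.46, 9.52 and 23.5 CPM in WT and 21.8, 24.1 and 49.6 CPM in KO (log2 fold change 1.30, SE 0.24, edgeR adjusted p 0.0218). Kcnj8, a potassium channel of pericytes, had 1.37, 1.08 and 5.34 CPM in WT and 7.13, 9.4 and 12.3 CPM in KO (log2 fold change 2.08, SE 0.43, edgeR adjusted p 0.0302). Plvap, a protein of endothelial diaphragms, had 11.6, 22.6 and 33.4 CPM in WT and 44.3, 51.5 and 64.7 CPM in KO (log2 fold change 1.30, SE 0.27, edgeR adjusted p 0.0302). For Kcnj8 and Plvap every KO library was above every WT library. Calcrl, the receptor of adrenomedullin, had 22.8, 32.7 and 66.8 CPM in WT and 64.9, 75.2 and 121 CPM in KO (log2 fold change 1.17, SE 0.22, edgeR adjusted p 0.0245). The endothelial list had 18 genes, 15 of them tested with 1 called (6.67%, against 2.22% of all genes). It summed to between 504 and 585 CPM in WT and between 613.5 and 839 CPM in KO, without overlap (exact permutation p = 0.1). Of its 18 genes 1 was at 0 in all 6 libraries. The fibroblast list overlapped, at 12680 to 15910 CPM in WT and 10530 to 13650 CPM in KO, with 0 of 17 tested genes called in edgeR or limma-voom, 2 in DESeq2 and 4 at an unadjusted p under 0.05. The smooth muscle and pericyte list overlapped as well, at 1067 to 2907 CPM in WT and 1161 to 1731 CPM in KO. Among its 18 genes 2 were higher and 1 lower (16.7% called, against 2.22% of all genes). Below 0 were 11 of these 18, and their median was -0.12, with 0.73 in batch 2, -0.97 in batch 3, and 0.12 with library size alone. What these lists contribute to the higher matrix genes was not tested.

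**Figure D5:**
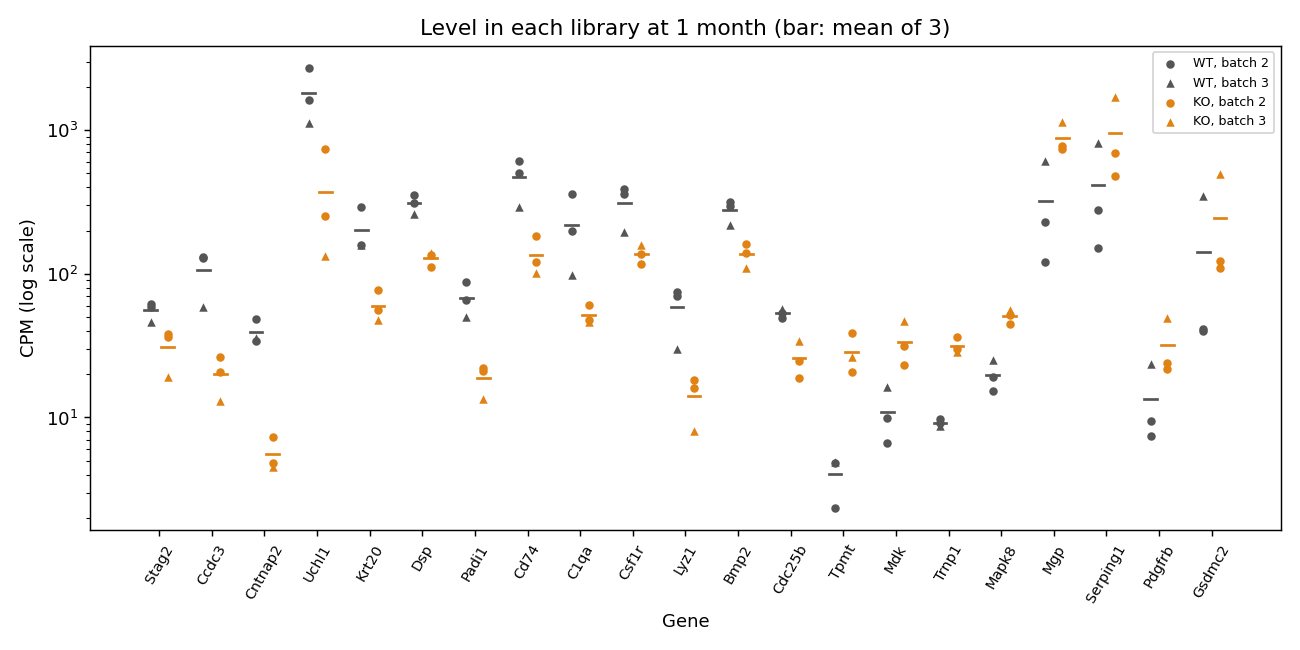
CPM of 21 genes in each library on a log axis, with WT in grey, KO in orange, circles for batch 2, triangles for batch 3 and bars at the mean of 3. From Ccdc3 to Cdc25b the KO libraries lie below the WT libraries, from Tpmt to Mgp they lie above, and in Serping1, Pdgfrb and Gsdmc2 the WT triangle reaches into the KO range.

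Ligands and receptors counted 12 higher and 12 lower genes. Bmp2, a bone morphogenetic protein, had 316, 296 and 219.7 CPM in WT and 160.4, 139.6 and 109.7 CPM in KO (log2 fold change -1.02, SE 0.20, edgeR adjusted p 0.0245), and every KO library was below every WT library. Sfrp1, a secreted inhibitor of Wnt, had 128, 79.5 and 53.1 CPM in WT and 19.7, 35.9 and 28.1 CPM in KO (log2 fold change -1.58, SE 0.30, edgeR adjusted p 0.025). With Lrrc32, 3 of 59 tested genes of Hedgehog, BMP, TGF-beta and Wnt signalling passed (5.08%, against 2.22% of all genes), and the median was 0.35. Gas6, a ligand of TAM receptors, had 4.91, 8.08 and 98.7 CPM in WT and 23.1, 20.6 and 167 CPM in KO (log2 fold change 1.35, SE 0.27, edgeR adjusted p 0.0278). Pros1, the other TAM ligand, had 5.69, 7 and 26.7 CPM in WT and 10.4, 19.6 and 71.7 CPM in KO (log2 fold change 1.30, SE 0.28, edgeR adjusted p 0.034). In both ligands batch 3 was far above batch 2 in each genotype. Il17rd, which restrains FGF signalling, rose by 1.40 on the log2 scale. Inside the cell, Mapk8, the kinase JNK1, had 15.3, 19 and 25 CPM in WT and 51.6, 44.6 and 55.9 CPM in KO (log2 fold change 1.37, SE 0.23, edgeR adjusted p 0.0115). Akt1 had 12.9, 14.7 and 103 CPM in WT and 75.5, 59.3 and 149 CPM in KO (log2 fold change 1.66, SE 0.33, edgeR adjusted p 0.0306), and Yap1, the coactivator of the Hippo pathway, had 11.4, 13.3 and 76.9 CPM and 35.2, 46.2 and 101 CPM (log2 fold change 1.24, SE 0.28, edgeR adjusted p 0.0429). Both overlapped between genotypes, and Mapk8 did not.

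Of 61 tested genes of xenobiotic, glutathione and aldehyde metabolism 5 were higher and 1 lower (9.84% called, against 2.22% of all genes), and the median was 0.19. Without overlap, 11 lay above WT and 4 below, where 5.72% and 7.58% of all genes did. Beside Tpmt, Cbr3, a carbonyl reductase, had 0.981, 2.69 and 7.17 CPM in WT and 11.7, 9.72 and 16.6 CPM in KO (log2 fold change 1.99, SE 0.42, edgeR adjusted p 0.0314). Aldh1a2, which makes retinoic acid, had 4.71, 11.3 and 17.7 CPM in WT and 20.8, 22.1 and 41.6 CPM in KO (log2 fold change 1.35, SE 0.30, edgeR adjusted p 0.0378). Nqo1, a quinone reductase under NRF2, had 34.9, 36.6 and 52.8 CPM in WT and 96.5, 68.5 and 76.5 CPM in KO (log2 fold change 0.98, SE 0.23, edgeR adjusted p 0.0448). In these 3 every KO library was above every WT library. Gsta3 rose by 1.18 on the log2 scale, and Gstm6, another glutathione transferase, had 13, 25 and 22 counts in WT and 5, 0 and 3 counts in KO (log2 fold change -3.15, SE 0.70, edgeR adjusted p 0.0378). The glutathione transferase genes are close copies, so their split by counting is uncertain. Shmt2 and Atic, both of 1-carbon and purine metabolism, rose by 1.23 and 1.32.

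In lipid metabolism the hand-given role held 5 higher and 5 lower genes. Dgat2, which completes triglycerides, had 170.5, 168 and 101 CPM in WT and 82.6, 68.8 and 41 CPM in KO (log2 fold change -1.20, SE 0.20, edgeR adjusted p 0.0113). Acsl3, an acyl-CoA synthetase of lipid droplets, had 187, 257 and 156 CPM in WT and 90.02, 84.8 and 93.8 CPM in KO (log2 fold change -1.14, SE 0.22, edgeR adjusted p 0.0246). Insig1, the sterol-regulated protein that holds SREBP in the endoplasmic reticulum, had 18.8, 19.8 and 13.3 CPM in WT and 6.03, 7.81 and 6.98 CPM in KO (log2 fold change -1.30, SE 0.29, edgeR adjusted p 0.0371). In these 3 every KO library was below every WT library. Of the 67 tested genes of the fatty acid and lipid list, Hpgd, Dgat2 and Acsl3 passed (4.48%, against 2.22% of all genes), at a list median of -0.03. Of 26 tested cholesterol genes Insig1 alone passed (3.85% called). Without overlap, 10 of the 26 lay below WT and 0 above (7.58% and 5.72% of all genes), at a list median of -0.34. Among those not called were Fdps, with 108, 64.3 and 81 CPM in WT and 59.3, 33.1 and 36.4 CPM in KO (edgeR adjusted p 0.0699), and Mvd, with 226, 136 and 87 CPM and 86.7, 30.4 and 38.1 CPM (edgeR adjusted p 0.0642).

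In mitochondria, 3 genes of the calcium uniporter complex passed, chosen for mention after their values were seen. Ccdc109a, the pore protein now named Mcu, had 122, 138 and 240.5 CPM in WT and 318, 365 and 424 CPM in KO (log2 fold change 1.20, SE 0.22, edgeR adjusted p 0.0196). Ccdc109b, its paralog that dampens the pore, had 22, 21.2 and 8.7 CPM in WT and 7.26, 6.38 and 4.55 CPM in KO (log2 fold change -1.44, SE 0.30, edgeR adjusted p 0.0302). Ccdc90a, known as the uniporter regulator Mcur1, had 64.6, 61.9 and 27.5 CPM in WT and 18.2, 16.9 and 18.5 CPM in KO (log2 fold change -1.43, SE 0.28, edgeR adjusted p 0.0245). The pore gene rose and the other two fell, each without overlap. Tmem66, now Saraf, which limits store-operated calcium entry, rose from 55.9, 70.2 and 108 CPM to 121, 162 and 216 CPM (log2 fold change 1.11, SE 0.21, edgeR adjusted p 0.0238). Calm2, a calmodulin gene, fell by 1.01 on the log2 scale. Of 91 tested respiratory chain subunits 1 rose and 1 fell (2.2% called, against 2.22% of all genes), at a median of 0.04. Of 87 ribosomal protein genes 0 passed in edgeR, against 11 in DESeq2, 1 in limma-voom and 22 at an unadjusted p under 0.05.

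The lower genes of highest mean CPM were Ctsd, S100a1 and Uchl1. Ctsd, the lysosomal protease cathepsin D, had 5277, 3622 and 2304 CPM in WT and 1496, 1348 and 1104 CPM in KO (log2 fold change -1.45, SE 0.27, edgeR adjusted p 0.0222). S100a1, a calcium-binding protein, had 2815, 1233 and 1007 CPM in WT and 611, 395 and 555 CPM in KO (log2 fold change -1.63, SE 0.36, edgeR adjusted p 0.0421). Its WT libraries differed among themselves more than its KO libraries did, and the genotypes stayed apart. Hnrnpk and Ddx17, 2 RNA-binding proteins, were among the abundant higher genes, with log2 fold changes of 1.11 and 1.03. In both, the WT library of batch 3 was above the lowest KO library.

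Cell cycle lists had few called members. Of 40 tested S phase genes, 17 DREAM and E2F-RB genes, 15 cohesin genes and 11 CDK inhibitors and cyclins D, 0 passed in edgeR, with 8, 1, 1 and 3 at an unadjusted p under 0.05. DESeq2 called 3, 0, 1 and 1 of them, and limma-voom 0. Their medians were -0.15, 0, -0.22 and 0.11, and with library size alone 0.08, 0.23, 0 and 0.34. Of 32 tested G2/M genes 1 passed (3.12% called, against 2.22% of all genes). It was Cdc25b, the phosphatase that activates CDK1, with 53.6, 49.2 and 56.6 CPM in WT and 18.7, 24.9 and 34.3 CPM in KO (log2 fold change -1.06, SE 0.23, edgeR adjusted p 0.0327). Its levels were apart between genotypes, and 24 of the 32 genes lay below 0, with a median of -0.47. By batch that median was -0.66 and 0.01, and 32 of the 65 listed genes had enough counts to test. Mki67, the proliferation marker, had 24.1, 8.8 and 3.66 CPM in WT and 3.69, 3.51 and 4.4 CPM in KO, where WT replicate 1 stood above the rest (log2 fold change -1.44, SE 0.54, edgeR adjusted p 0.16). Wee1, the kinase that opposes Cdc25b, fell too, from 64, 56.2 and 32.7 CPM to 33.7, 18.8 and 10.2 CPM (log2 fold change -1.34, SE 0.26, edgeR adjusted p 0.025), with WT of batch 3 just below KO replicate 1. Among other genes of division, named after their values were seen, Apitd1 (Cenps in current naming) and Haus8 fell by 1.72 and 1.62 on the log2 scale, and Mms22l, needed at stalled replication forks, rose by 2.26.

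Genes under parental imprinting held 3 lower and 0 higher members of 27 tested (11.1% called, against 2.22% of all genes). Above 0 were 13 of the 27 and below 0 were 14, at a median of -0.10, or 0.12 with library size alone. Rian (chr12:109603945-109661716) and Mirg (chr12:109734981-109749458), maternally expressed non-coding RNAs of the Dlk1-Dio3 domain, lay next to each other. Rian had 51.6, 44.2 and 39.8 CPM in WT and 17.7, 23.9 and 17.3 CPM in KO (log2 fold change -1.20, SE 0.23, edgeR adjusted p 0.0232). Mirg had 13.3, 10.4 and 10.1 CPM in WT and 3.2, 3.83 and 2.12 CPM in KO (log2 fold change -1.90, SE 0.35, edgeR adjusted p 0.0201). The next tested gene on that chromosome, Dio3os, had 4.91, 5.03 and 3.05 CPM in WT and 0.615, 0.637 and 1.37 CPM in KO (log2 fold change -2.29, SE 0.54, edgeR adjusted p 0.0458). Peg3, a paternally expressed zinc finger gene on chromosome 7, had 99.9, 129.8 and 83.2 CPM in WT and 43.9, 50.4 and 50.5 CPM in KO (log2 fold change -1.10, SE 0.22, edgeR adjusted p 0.0268).

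At 1 week, 8 of 12754 genes passed in edgeR (0.0627%) in the same comparison. The biological coefficient of variation was 44.4% there and 24.2% at 1 month, so counts of passing genes do not compare the sizes of the effects. Of 118 higher genes tested at 1 week 59 were above 0, which is 50%, as were 50.8% of all genes. Of 146 lower genes 73 were below 0, also 50%, against 49.1% of all genes. Counted by libraries that lay wholly apart, 45 of the 148 lower genes had KO below WT at 1 week (30.4%, against 12.5% of all genes tested at 1 month) and 16 had KO above WT (10.8%, against 13.7%). Of the 121 higher genes 18 had KO above WT (14.9%) and 6 below (4.96%). Genes with every KO library below every WT library at both times included Cntnap2 (-2.45 at 1 week), Uchl1 (-3.19), Defb1 (-1.74), Slc6a8 (-1.72), Ccdc3 (-1.33), Rian (-2.56), Mirg (-2.81) and Bmp2 (-0.74), as log2 fold changes. Higher without overlap at both times were, among others, Mdk (1.40), Cxcl14 (1.32), Aldh1a2 (3.08) and Kcnj8 (1.16). The adjusted p of each of these 12 genes at 1 week was above 0.05. Of the 269 genes 1 passed at 1 week too, Hrh3, with a 1-week mean of 18.7 CPM in WT and 0 CPM in KO (edgeR adjusted p 0.0275). The 1-week libraries come from other animals and batch 1, so time and batch cannot be told apart, and Xist had 6392 to 10406 counts in the KO libraries of 1 week against 1 to 13 in the WT libraries, so its carriers and genotype cannot be told apart there.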

How the data were processed

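Peeled urothelium of 3 Stag2-KO and 3 Stag2-WT mice taken 1 month after induction was profiled by 3′ mRNA sequencing. The deposited values are whole-number counts per gene, which the authors made with strand-aware HTSeq, per the labels' protocols; the submitters' processing notes also name Bowtie, TopHat, DESeq2 and mm10. Columns were matched to samples through library names. Replicate numbers follow accession order. Totals ran from 5580961 to 8308467 counts, and 3 counts, taken as the floor, correspond to between 0.369 and 0.589 CPM.

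Counts were fitted with edgeR 4.0.16 in R 4.3.3 by the robust quasi-likelihood F test, with batch and genotype as terms, TMM scaling and filterByExpr with a minimum count of 10. P-values were two-sided and adjusted by Benjamini-Hochberg over 12139 genes, with a threshold of 0.05 and 3 residual degrees of freedom. The biological coefficient of variation was 24.2%. On simulated counts of 11980 genes for this comparison, 40% of genes changed by 1 on the log2 scale and 95% of those changed by 2 were recovered. The log2 differences within a batch used a prior count of 2. The 1-week table was fitted alone, without batch.

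Members and lists were chosen with earlier results of these data known. Genes were named as Stag2, Stag1 and Stag3, the 12 higher and 12 lower called genes of smallest adjusted p without overlap, the 8 of highest mean CPM in each direction, up to 4 called genes per list, layer and cell type markers, and some chosen after their values were seen. The text describes some, not every one, of these. DESeq2 1.42.0, limma-voom (limma 3.58.1), other scalings and filters, other designs and each library left out were tried as alternatives. Summed marker levels were compared by exact permutation. Of 23337 symbols 20733 matched RefSeq directly and 2317 through a synonym. Promoters came from RefSeq GRCm38.p6.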

Additional observations from a re-analysis of the deposited data

Results flagged for a closer look

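For 15 named genes the libraries of KO and WT lay wholly apart at both times but in opposite directions, and the difference between the times was not tested. Lower in KO at 1 month and higher at 1 week were myeloid genes: C1qa had a 1-week log2 fold change of 2.03, C1qb 1.01, Csf1r 1.57, Fcrls 1.54, Clec4a1 2.17 and Stab1 2.54. Also lower at 1 month and higher at 1 week were the alarmin gene Il33 (2.72), the interferon-induced Ifi27l2a (1.36), clusterin Clu (1.02), the actin regulator Cap1 (2.16), the transcription factor gene Runx3 (1.14), the uniporter paralog Ccdc109b (0.70), Cox6b2 of respiration (2.06) and Magt1 of magnesium transport and glycosylation (0.86). Nqo1, the quinone reductase, was higher at 1 month and lower at 1 week (-1.88). Of all 148 lower genes 10.8% had KO wholly above WT at 1 week, against 13.7% of all genes tested at 1 month. Of all 121 higher genes 4.96% had KO wholly below WT, against 12.5%. Both shares lay below those of all genes. The times differ in batch and in the Xist content of their KO libraries, which cannot be told apart from time.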

How the results depend on the processing

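The 269 calls (121 higher, 148 lower) moved with the design far more than with most tool settings, and each of the called genes kept its direction in every alternative that fitted it. DESeq2 called 781 genes, 448 higher and 333 lower, and dropping the filter on low counts gave 1276, 805 higher and 471 lower. Library size alone gave 556, of which 451 were higher. A stromal and immune marker score as covariate gave 794, with 377 higher and 417 lower, and batch 2 alone gave 1474, with 929 and 545. Without batch in the model 0 passed in edgeR, 0 higher and 0 lower, with 919 at an unadjusted p under 0.05. With 1 library left out the count ranged from 45 to 1522, the higher genes from 9 to 969 and the lower genes from 36 to 553. The highest counts came without either library of batch 3, where the genotype effect rests on batch 2 alone. RLE factors (292), limma-voom (235), a mean of at least 20 counts (269), no robust option (240) and leaving out the 10 most abundant genes (293) stayed within 1.5 times. Beyond those by construction, the cause of each shift was not tested. Stag2 in KO at 1 month passed in DESeq2 at -0.88 (adjusted p 0.0145) and without the filter at -0.84 (edgeR adjusted p 0.0124). No paired analysis was possible because the labels give no replicate numbers that join a KO to a WT mouse. With 3 residual degrees of freedom and 40% of simulated 2-fold changes recovered, a gene that did not pass may still differ.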
